A study of Mus musculus with 70 samples.

Results

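Chil3, Wfdc17, Hp, Cd177, Saa3 and Lcn2 are 6 of the 52636 genes in the count table. All code for secreted or surface proteins and are grouped here as genes of neutrophil-like Ly6Chigh monocytes. They were selected on earlier results of these libraries, in which genes of this kind differed between Ly6Chigh monocytes of stress-susceptible and unstressed mice. Levels in that contrast are therefore given as a description without a test, whereas the other contrasts are tested. All animals were C57BL/6J mice, 7 to 8 weeks old at the start of the stress. Unstressed controls (CON) were compared with mice after 10 consecutive days of CSDS (chronic social defeat stress), in which a mouse is attacked daily by a larger aggressor and otherwise housed beside it. Defeated mice were called susceptible (SUS) if they avoided an unfamiliar mouse in a social interaction test and resilient (RES) if they did not, so SUS and RES received the same treatment and were split by behaviour. After red cell lysis, B cells, T cells and both Ly6Chigh and Ly6Clow monocytes were sorted with antibodies to CD11b, Ly6C, Ly6G, B220 and CD90.2. The sample labels name brain as the source, whereas the design text and the methods of the study name blood, and the markers of the sorted leukocytes cannot tell these apart.

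Neutrophils store antimicrobial proteins in granules that are filled one after the other during maturation in the bone marrow, and lipocalin 2 belongs to the later, secondary granules. Some Ly6Chigh monocytes arise from granulocyte-monocyte progenitors and keep part of this programme, for which the chitinase-like protein Chil3 (Ym1) and the protease inhibitor-like Wfdc17 are common markers. Haptoglobin (Hp), serum amyloid A3 (Saa3) and lipocalin 2 (Lcn2) are also acute phase proteins, made in response to cytokines that act through STAT3, C/EBP factors and NF-kappaB. Haptoglobin binds free haemoglobin, lipocalin 2 binds bacterial iron carriers, serum amyloid A3 is a lipid-binding inflammatory protein, and CD177 is a neutrophil surface glycoprotein.

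The groups held 6 libraries each, except for 4 in Ly6Clow CON, 5 in B cell RES and 5 in T cell RES. Totals ranged from 19769835 to 67038231 counts, with a median of 37105583.5. Of the 161 pairs of libraries within a group, 0 held identical values. Library 52, labelled as RES B cells, had Cd79a at 5.76 and Cd3e at 412 CPM (counts scaled to library size), and library 70, labelled as RES T cells, had them at 1417 and 0.143 CPM. Both go against their labels, since Cd79a is part of the B cell receptor and Cd3e of the T cell receptor, and both were left out, which leaves 68 libraries. With both kept, 0 members passed in any B cell or T cell contrast between groups of mice, as without them. Libraries are named by the number in their labels. Nothing in the labels says which mouse a library came from, so p-values measure the spread between these libraries. In sorted bulk libraries, fewer cells with a transcript and less RNA per cell cannot be told apart.

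The members lie on 5 chromosomes in GRCm38 and none is overlapped by another annotated gene. Chil3 spans chr3:106147554-106167564, Hp chr8:109575128-109579172, Cd177 chr7:24743983-24760311, Saa3 chr7:46711998-46715700 and Lcn2 chr2:32384633-32388252, all on the minus strand, and Wfdc17 spans chr11:83703991-83706268 on the plus strand. Counts are summed over exons. Of the 31-base stretches of the annotated Chil3 transcripts, 41.5% also occur in another gene, mostly in Chil4, so its counts depend on how shared reads were treated and Chil3 is uncertain to that extent. Such stretches made up 6.93% of Cd177, 7.56% of Saa3, 0.254% of Hp and 0% of Wfdc17 and Lcn2.

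The promoters of Chil3 and Saa3 are shown because these are the most abundant member and the one with the widest spread among the SUS libraries. Capitals mark matches, on either strand, to short motifs of factors that act on acute phase genes. Both stretches come from RefSeq (GRCm38.p6), end at the annotated gene and are read 5′ to 3′ on the minus strand, from chr3:106167565-106167814 and chr7:46715701-46715926.
Chil3: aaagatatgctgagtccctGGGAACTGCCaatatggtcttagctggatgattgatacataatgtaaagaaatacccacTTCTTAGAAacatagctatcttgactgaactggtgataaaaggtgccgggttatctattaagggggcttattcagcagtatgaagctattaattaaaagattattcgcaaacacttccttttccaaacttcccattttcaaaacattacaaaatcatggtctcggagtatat
Saa3: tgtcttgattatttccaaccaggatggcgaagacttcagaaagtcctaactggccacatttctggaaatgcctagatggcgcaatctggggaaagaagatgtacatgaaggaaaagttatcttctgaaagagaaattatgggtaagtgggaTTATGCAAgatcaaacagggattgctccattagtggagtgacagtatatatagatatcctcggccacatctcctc

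In the 250 bases before the RefSeq start, the STAT motif TTCNNNGAA was found in Chil3 alone, 172 to 164 bases upstream, and in 7.02% of all 32851 promoters of the same length. The C/EBP motif TTGCNNAA was found in Saa3, 99 to 92 bases upstream, and in Lcn2, beside 9.56% of all promoters. The looser NF-kappaB motif (GGG and CC separated by 5 bases) was found in Chil3, Cd177 and Lcn2 and in 45.8% of promoters, and the PU.1 motif GAGGAA in Cd177, Lcn2 and Wfdc17 and in 23.3%. No promoter entry was used for Hp. A match describes the letters of these windows and is not a measured binding site.

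In unstressed mice, the members were genes of Ly6Chigh monocytes. Levels were scaled to the combined length of all annotated exons of a gene, which can exceed that of any single transcript. On this scale, the CON Ly6Chigh libraries had 989 ± 306 CPM per kb of Chil3 (SD, n = 6), 202 ± 30.2 of Hp, 113 ± 12.1 of Cd177, 87.0 ± 15.6 of Wfdc17, 11.6 ± 8.36 of Lcn2 and 0.159 ± 0.240 of Saa3. The levels of different members relative to each other depend on this choice of length. The means of the neighbours Cd177 and Wfdc17 differed by less than the sum of their SDs. Saa3 was at 0 in 3 of these 6 libraries.

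Most members were far higher in the Ly6Chigh than in the Ly6Clow subset. In CON mice, Cd177 lay between 271 and 367 CPM in Ly6Chigh and between 0.601 and 2.03 CPM in Ly6Clow libraries, a 237-fold difference (log2 fold change 7.89, SE 1.03, edgeR's quasi-likelihood test, Benjamini-Hochberg adjusted p = 2.79e-08). Chil3 was 255-fold higher in Ly6Chigh (log2 8.00, SE 1.27), Wfdc17 13.7-fold (3.77, SE 0.90) and Hp 9.61-fold (3.26, SE 0.87), with no overlap between the subsets for any of the 4. Here and below, the share of all genes without overlap is not given, so a lack of overlap is a description of these libraries only. Lcn2 was 110-fold higher (6.78, SE 1.32), but 1 Ly6Clow library (21) carried 1.04 CPM against 0 to 0.0226 CPM in the other 3, and without it the log2 difference was 11.3. Saa3 did not pass (4.62, SE 2.14, adjusted p = 0.140). Thus 5 of 6 members were called higher in Ly6Chigh than in Ly6Clow, where a call needs an adjusted p under 0.05 and a log2 fold change beyond 1, beside 4.08% of 24248 genes tested.

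Against lymphocytes, 5 of 6 members were higher in Ly6Chigh than in B cells (17.2% of genes) and 6 of 6 than in T cells (15.9%). Cd177 was 2012-fold and Chil3 1260-fold higher than in B cells. Lcn2 was at 0 in all 6 CON T cell libraries, so its level in Ly6Chigh was at least 2494-fold higher, taking 3 counts over the group as the floor. Saa3 counted among the 6 against T cells with an adjusted p of 0.0144, and 5 members passed without CON library 4, which holds the highest CON Saa3 level.

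Ly6Clow monocytes kept a part of the set above lymphocytes. Chil3, Hp and Cd177 were higher than in B cells (3 of 6, beside 17%), with Hp at 53.2-fold (log2 5.73, SE 0.90). Wfdc17, Hp and Lcn2 were higher than in T cells (3 of 6, beside 15.2%). Lcn2 held 42 counts in Ly6Clow CON library 21 and 1, 0 and 0 counts in libraries 24, 29 and 32, so its level there comes almost wholly from library 21. The count against B cells was 2 without any single one of CON B cell libraries 35, 38, 41, 47 and 50 or Ly6Clow libraries 21, 24 and 29. The count against T cells was 2 without Ly6Clow library 21 or any single one of CON T cell libraries 53, 56, 59, 62, 65 and 68. Between B and T cells, Wfdc17 alone was higher in B cells (11.2-fold, 1 of 6, beside 8.82%), at 1.61 ± 0.94 against 0.121 ± 0.251 CPM (SD, n = 6 each), and 2 members passed without T cell library 68.

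**Figure D1:**
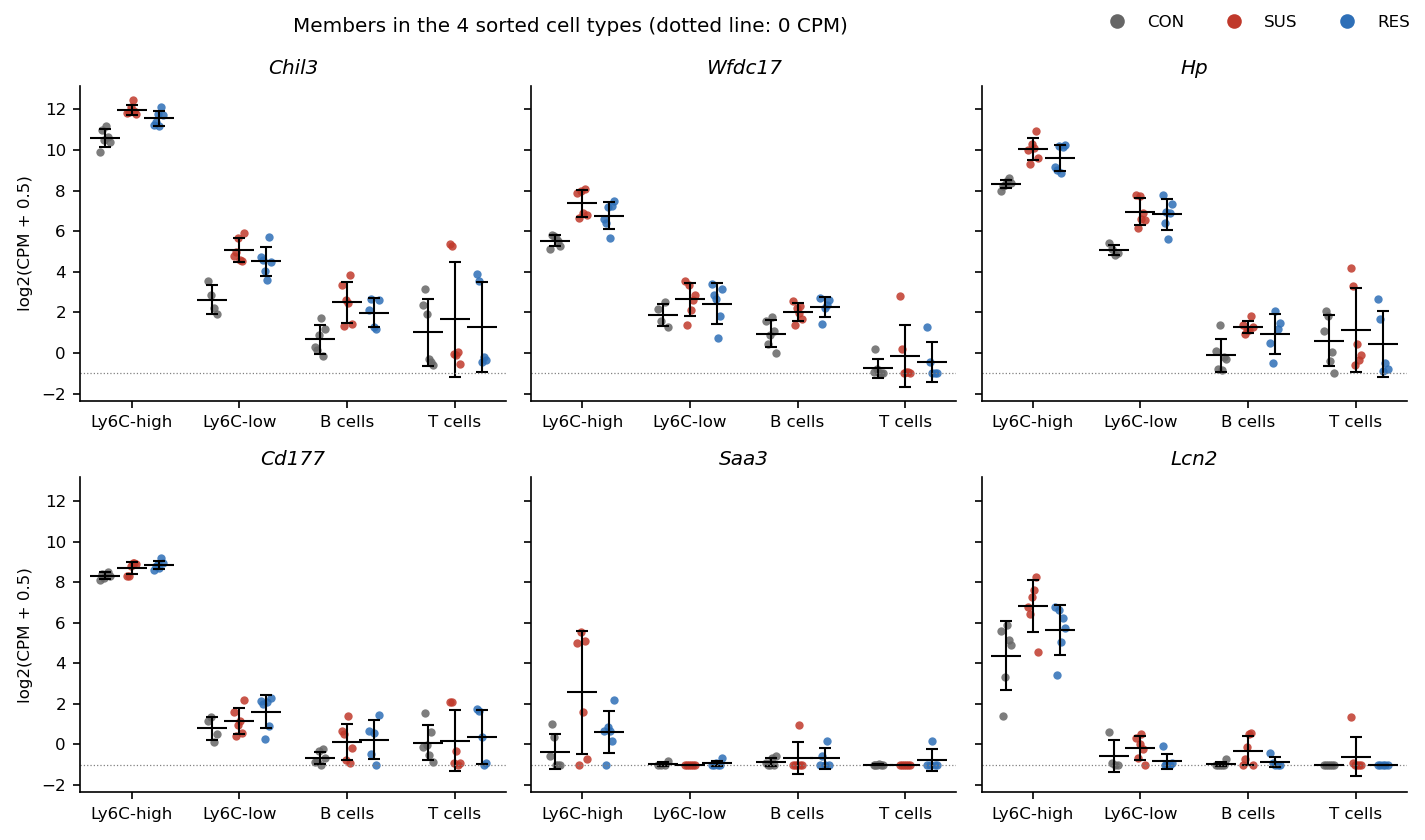
Level of each member, as log2(CPM + 0.5), in the 4 sorted cell types, with 1 point per library, coloured by group of mice, and bars giving the mean and SD of the log values. Levels in Ly6C-high monocytes lie above those of the other cell types for 5 members, whereas Saa3 is at 4.14 CPM or less in all libraries except 3 SUS Ly6C-high libraries between 31.9 and 46.4 CPM.

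In Ly6Chigh monocytes of SUS mice, 4 of the 6 members were past both thresholds against CON by edgeR and the other 2, Cd177 and Lcn2, were not, beside 3.45% of 16955 genes tested. By DESeq2, Lcn2 was past both as well, which makes 5 of 6. This is the contrast the members were chosen from, so nothing is read from the count. Chil3 ranged from 957 to 2351 CPM in CON (median 1502), from 3453 to 5597 in SUS (median 3815) and from 2308 to 4460 in RES (median 3013). Every SUS library lay above every CON library, and so did 5 of the 6 RES libraries, while SUS and RES overlapped. The log2 fold change of SUS over CON was 1.31 (SE 0.19), equal to 2.47-fold.

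Wfdc17, which has the fold of a whey acidic protein protease inhibitor, ranged from 34.7 to 55.0 CPM in CON (median 47.8), from 98.6 to 266 in SUS (median 179) and from 50.8 to 179 in RES (median 121). The SUS libraries fell into a lower trio of 98.6, 111 and 120 CPM (libraries 5, 17 and 11) and an upper trio of 238, 251 and 266 CPM (libraries 2, 8 and 14). All SUS libraries exceeded all CON libraries, and the log2 fold change was 1.94 (SE 0.28). Hp ranged from 254 to 394 CPM in CON (median 324), from 641 to 1959 in SUS (median 1069) and from 470 to 1223 in RES (median 843). Neither group of stressed mice overlapped CON, and the SUS over CON log2 fold change was 1.77 (SE 0.26).

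Saa3 was high in single libraries rather than across the SUS group. The CON libraries held 0, 0, 0, 0.173, 0.771 and 1.54 CPM, the SUS libraries 0, 0.1, 2.5, 31.9, 33.3 and 46.4 CPM, and the RES libraries 0, 0.629, 1.09, 1.11, 1.34 and 4.14 CPM. The 3 high values are those of SUS libraries 2, 14 and 8, the upper trio of Wfdc17, and the other 3 SUS libraries overlapped CON. The fitted log2 fold change of 5.49 (SE 1.63) thus describes an unequal group, and its adjusted p moved above 0.05 when any single one of CON libraries 1, 7, 10, 13 and 16 or SUS libraries 2, 8 and 14 was left out, with log2 values of 5.05 to 5.72. In the upper trio, the summed red cell markers were at 1368, 2764 and 8988 CPM and in the lower trio at 1097, 1520 and 1843 CPM. The part of these cells in the Saa3 levels was not tested.

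Lcn2 varied widely within every group, from 2.13 to 59.5 CPM in CON (median 32.2), from 23.1 to 300.1 in SUS (median 132) and from 10.3 to 110 in RES (median 63.8). All SUS libraries except library 17 lay above the highest CON library, and the log2 fold change was 2.20 (SE 0.74). Cd177 differed least, at 271 to 367 CPM in CON (median 329), 313 to 498 in SUS (median 460) and 390 to 587 in RES (median 461). SUS and CON overlapped, with a log2 fold change of 0.36 (SE 0.13). The median log2 fold change of the 6 members was 1.86, beside -0.05 over all genes tested.

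**Figure D2:**
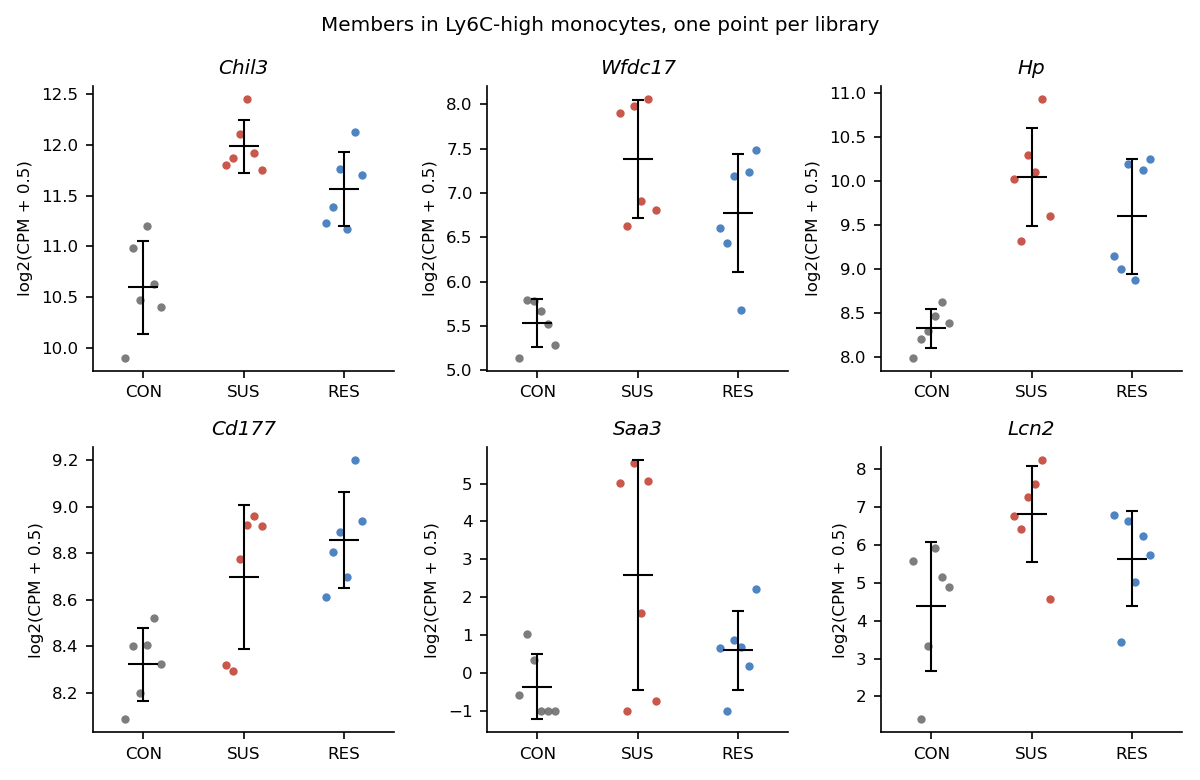
Level of each member in Ly6C-high monocytes of CON, SUS and RES mice, as log2(CPM + 0.5), with 1 point per library and bars giving the mean and SD of the log values, on a separate axis per gene. Hp does not overlap CON in either stressed group, Cd177 does not in RES, and Saa3 splits the SUS libraries into 3 high and 3 low.

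Resilient mice were compared with the same CON libraries. The CON levels had entered the choice of the members, and a gene that is low in these CON libraries by chance would differ here too, so the counts below are not independent of that choice. Hp and Wfdc17 rose in Ly6Chigh monocytes of RES mice, so 2 of 6 members were called, beside 0.997% of 16955 genes. Hp was 2.58-fold higher (log2 1.36, SE 0.25, edgeR adjusted p = 0.0138), with 6 of 6 RES libraries above every CON library, and Wfdc17 was 2.52-fold higher (log2 1.33, SE 0.27, adjusted p = 0.0138), with 5 of 6. Chil3 passed the adjusted p but not the fold threshold (log2 0.93, SE 0.19, 0.0138), and it was past both without CON library 10 (1.07), CON library 4 (1.00) or RES library 12 (1.00). Cd177 also passed the adjusted p with a smaller difference (log2 0.53, SE 0.14, 0.0288) and did not overlap CON. By the adjusted p alone, 4 of 6 members passed, beside 4.97% of genes. Lcn2 (log2 1.02, 95% interval -0.38 to 2.42, adjusted p = 0.453) and Saa3 (1.70, -1.13 to 4.53, 0.551) did not pass. The median over the 6 members was 1.18, beside -0.03 over all genes.

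Between SUS and RES, which shares the SUS libraries used for the choice, 0 of 6 members were called, beside 0% of genes (edgeR called 0 of 16955, with 620 at an unadjusted p under 0.05, and DESeq2 called 11). Every adjusted p of the members was 0.999. The log2 difference was 0.38 for Chil3 (95% interval 0.01 to 0.75), 0.60 for Wfdc17 (0.08 to 1.13) and 0.41 for Hp (-0.08 to 0.90). It was -0.17 for Cd177 (-0.43 to 0.10), 1.18 for Lcn2 (-0.22 to 2.58) and 3.79 for Saa3 (0.87 to 6.71), the last resting on the 3 high SUS libraries.

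**Figure D3:**
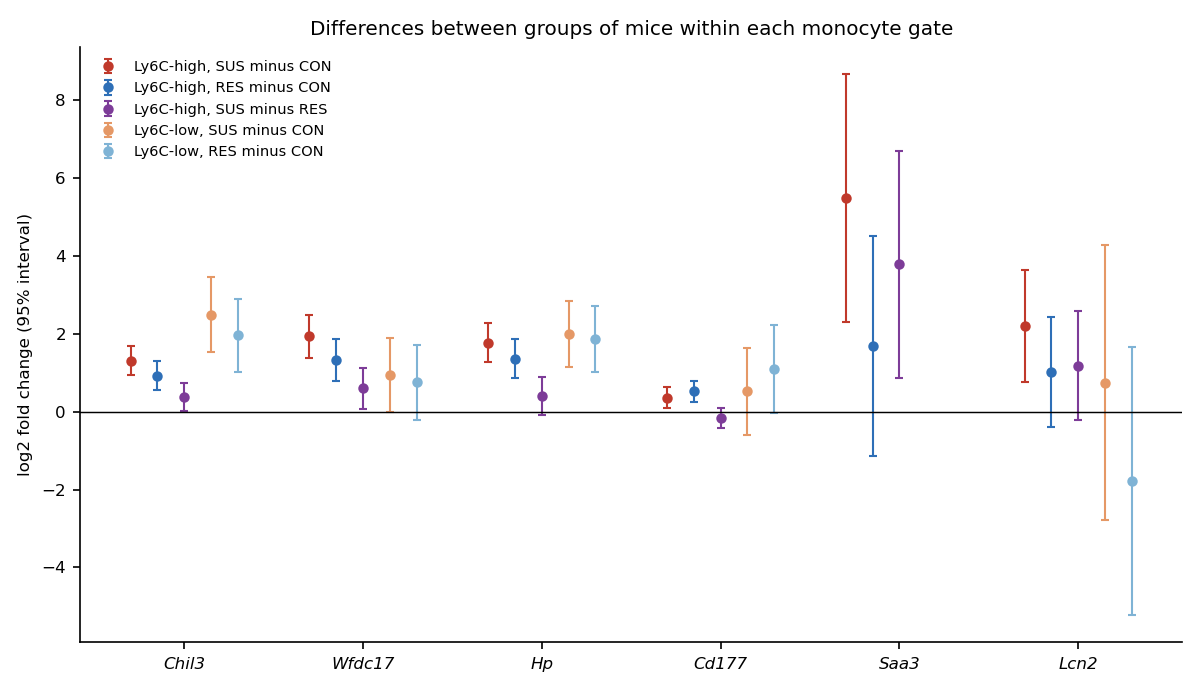
Log2 fold change of each member between groups of mice in Ly6C-high and Ly6C-low monocytes, with 95% intervals from the fit and a line at 0. Intervals of Chil3, Wfdc17, Hp and Cd177 exclude 0 in Ly6C-high RES minus CON, whereas those of Saa3 and Lcn2 cross it, and Saa3 was not tested in Ly6C-low monocytes.

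Red cell markers moved with the stressed groups in the Ly6Chigh libraries. The summed level of Hba-a1, Hba-a2, Hbb-bs, Hbb-bt, Alas2 and Slc4a1 ranged from 343 to 1215 CPM in CON, from 1097 to 8988 in SUS and from 1077 to 4348 in RES. All 6 were called higher in SUS than in CON, and Slc4a1 in RES. With the mean log2 level of these markers as a covariate, 0 members were called in SUS against CON (beside 0.0059% of genes) and 0 in RES against CON (beside 0%). The log2 difference of SUS over CON then stood at 1.11 for Chil3, 1.36 for Wfdc17, 1.04 for Hp and 4.24 for Saa3. That of RES over CON stood at 0.75 for Chil3 (SE 0.24), 0.87 for Wfdc17 (SE 0.33) and 0.79 for Hp (SE 0.28), each with an adjusted p of 0.957. The part of red cell RNA in these differences was not tested beyond these values.

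Markers of neutrophils ranged from undetected to abundant. Ly6g was at 0 in 3 of 6 CON, 3 of 6 SUS and 4 of 6 RES Ly6Chigh libraries and reached at most 1.13 CPM, Stfa2l1 was at 0 in every CON and RES library and reached 0.294 CPM in SUS, and Cxcr2 did not exceed 1.62 CPM. Over the 16 markers the summed level was 404 to 974 CPM in CON, 588 to 2308 in SUS and 512 to 1456 in RES, of which Csf3r, which monocytes also express, made up 348 to 603 CPM. Several granule and calprotectin genes among them were higher on average in SUS than in CON without passing the test. Ngp had means of 213 and 101 CPM, Ltf 143 and 54.1, S100a9 135 and 55.6, S100a8 82.8 and 23.1, and Camp 43.6 and 18.4. Retnlg went the other way, at 1.08 CPM in SUS and 5.39 in CON (log2 -2.37, SE 1.12), and did not pass either. With the mean log2 level of the 16 markers as a covariate, the log2 difference of SUS over CON stood at 1.29 for Chil3, 2.02 for Wfdc17 and 1.71 for Hp. It stood at 0.35 for Cd177, 6.57 for Saa3 and 1.69 for Lcn2. The part of neutrophil RNA in the SUS levels was not tested beyond these values. By edgeR, 0 of the 14 markers that could be tested were called in either stressed group, with medians of 1.21 (SUS) and 0.68 (RES) on the log2 scale. At an unadjusted p under 0.05 were 3 of these markers in SUS and 1 in RES, beside 4498 and 3599 of 16955 genes. With the mean of these markers as a covariate, 2 members were called in RES against CON as before, beside 0.637% of genes, at log2 1.36 for Wfdc17 (SE 0.28) and 1.35 for Hp (SE 0.26). Platelet markers summed to 6.15 to 10.4 CPM in CON, 5.86 to 51.3 in SUS and 7.66 to 19.7 in RES, with Ppbp called in SUS. The 8 markers of Ly6Chigh monocytes, against which the sort was checked, summed to 15402 to 28469 CPM over the 18 libraries, and the Fc receptor gene Fcgr1 was called higher in SUS and RES and Vcan in SUS. Of the markers tested for Ly6Clow monocytes (8), B cells (3) and T cells (5), 0 were called by edgeR in either contrast with CON, and 2 Ly6Clow markers in SUS had an unadjusted p under 0.05.

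**Figure D4:**
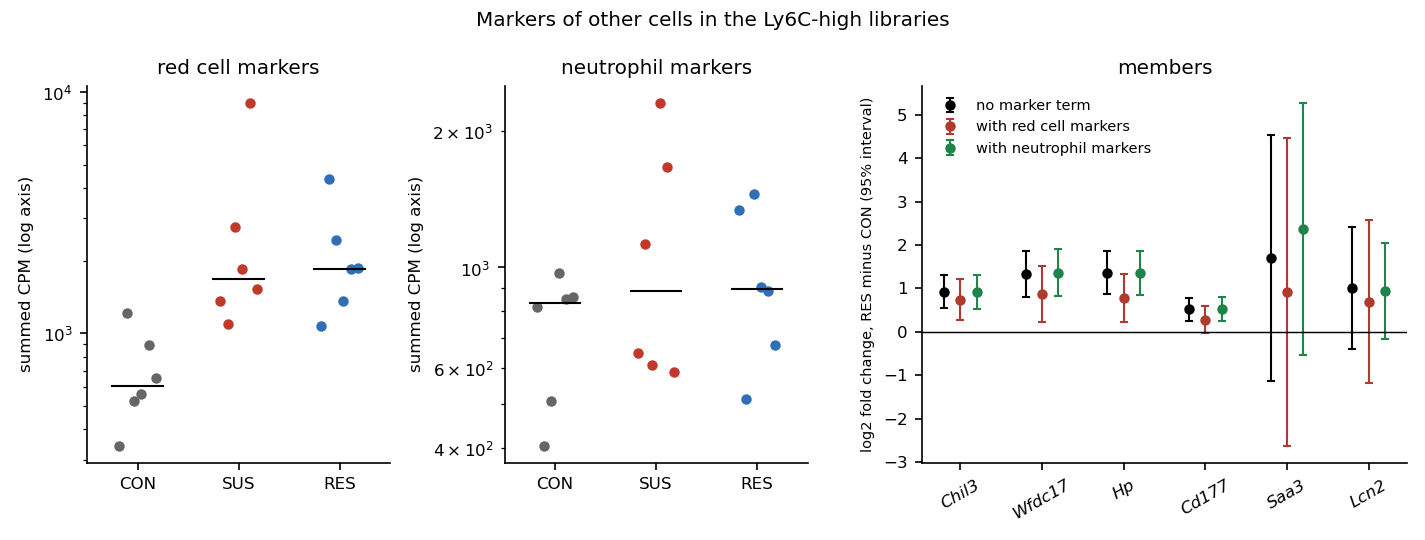
Summed CPM of 6 red cell and 16 neutrophil markers in the Ly6C-high libraries (log axes, lines at the medians), and the log2 fold change of each member in RES over CON with 95% intervals, without a marker term and with either marker mean as a covariate. The RES and SUS libraries lie mostly above CON for red cell markers, and the differences of Hp, Wfdc17 and Chil3 are smaller with that term but little changed with the neutrophil term.

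Some other granule genes rose with stress. Of 18 secondary and tertiary granule genes, 5 were called higher in SUS than in CON (beside 3.45% of all genes called, median log2 0.99): the collagenase Mmp8 (1.49, SE 0.20, adjusted p = 0.000209), the antiprotease Slpi (1.66, SE 0.30), Lrg1 (6.36, SE 1.51), Wfdc21 and Fcnb. In RES, 1 of 18 was called (beside 0.997% of all genes), Slpi (1.19, SE 0.30, adjusted p = 0.0270). Mmp8 passed the adjusted p in RES but not the fold threshold (0.96, SE 0.19, edgeR adjusted p = 0.0138). Its SUS over RES difference did not pass (0.53, SE 0.19, edgeR adjusted p = 0.999). The classical secondary granule genes Ltf (1.36, SE 1.20), Camp and Ngp did not pass by edgeR. Of 7 primary granule genes, Prtn3, which codes for proteinase 3, rose in SUS (3.54, SE 0.43) and in RES (2.91, SE 0.42, edgeR adjusted p = 0.00627), whereas Elane and Mpo did not pass.

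Of 25 acute phase and upstream signalling genes, 21 were tested, and Socs3, the feedback inhibitor of cytokine signalling through STAT3, was called higher in SUS (2.90, SE 0.41) and RES (2.02, SE 0.40, adjusted p = 0.0140). Lrg1, counted among the granule genes above, was the other gene called in SUS. Of all genes, 3.45% were called in SUS and 0.997% in RES. Stat3 was at 0.69 in SUS (SE 0.14), under the fold threshold, and Csf3r at 0.08 (SE 0.15). Among 18 relatives of the members, 8 were tested and 2 were called in SUS, the protease inhibitor-like genes Wfdc21 (3.42, SE 0.98) and Slpi. Both were already counted among the granule genes. Chil4, the gene that shares most sequence with Chil3, had means of 2.26 CPM in CON and 4.90 CPM in SUS and did not pass, and Saa1, Saa4 and Lcn3 were too low to test. Among 17 receptors and binding partners, 16 were tested. The haemoglobin-haptoglobin receptor Cd163 fell in SUS (-1.46, SE 0.40, adjusted p = 0.0174) and was at -0.97 in RES (SE 0.39, adjusted p = 0.147), and haem oxygenase Hmox1 was at 0.85 (SE 0.21) and 0.75 (SE 0.21), under the fold threshold. These lists overlap, so their counts are not separate results, and they were assembled with results of the data known. With red cell markers as a covariate, 0 of the 17 listed genes called in Ly6Chigh monocytes, marker lists included, passed. The red cell markers are among these 17 and make up the covariate, so their loss was fixed in advance. That fit called 0.0059% of all genes in SUS against CON and 0% in RES against CON, so nothing particular to the listed genes is read from the count. In SUS against RES, 0 genes of any list were called by edgeR, where 620 genes over the whole table had an unadjusted p under 0.05.

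In Ly6Clow monocytes, Chil3 and Hp lay at lower levels, and neither group of stressed mice overlapped CON. Chil3 held 3.28, 4.20, 6.62 and 11.1 CPM in the 4 CON libraries, 23.0 to 60.1 in SUS (median 29.3) and 11.6 to 51.8 in RES (median 22.8). Hp held 28.3, 30.2, 34.1 and 42.2 CPM in CON, 71.1 to 223 in SUS (median 108) and 47.9 to 219 in RES (median 121). The log2 fold changes over CON were 2.49 for Chil3 in SUS (SE 0.49, adjusted p = 0.0538) and 1.97 in RES (SE 0.48, 0.175). Those of Hp were 2.00 in SUS (SE 0.43, 0.0883) and 1.88 in RES (SE 0.43, 0.155). By edgeR, 0 of the 5 members tested were called in SUS against CON (beside 0.0871% of 19521 genes), in RES against CON (0.0154%) or in SUS against RES (0%). At an unadjusted p under 0.05 were 2, 2 and 0 members, beside 1857, 1888 and 740 of the 19521 genes. By DESeq2, Chil3 and Hp were called in both SUS (beside 0.435% of genes) and RES (0.0256%). Wfdc17 (1.16 to 11.3 CPM) and Cd177 (0.601 to 4.36 CPM) overlapped between the groups, Lcn2 stayed at 1.04 CPM or less, and Saa3 was at 0 in 13 of 16 libraries. Summed red cell markers ranged from 295 to 1259 CPM in CON, 859 to 2691 in SUS and 877 to 3919 in RES, and their part was not tested in this cell type.

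In B cells, 0 of the 4 members tested were called in SUS against CON (beside 0.00568% of 17620 genes), RES against CON (0%) or SUS against RES (0%). Chil3 was at 1.28 ± 0.91 CPM in CON (SD, n = 6), 6.40 ± 4.58 in SUS (n = 6) and 3.83 ± 1.97 in RES (n = 5). Its log2 fold change of SUS over CON was 2.32 (SE 0.53, edgeR adjusted p = 0.236), and DESeq2 called 1 member in that contrast, beside 0.148% of genes. In T cells, 0 of 4 were called in SUS against CON (0.0265% of 18860 genes), RES against CON (0%) or SUS against RES (0%). The spread among T cell libraries was wide: Chil3 reached 37.7 and 40.3 CPM in SUS libraries 57 and 54, 11.1 and 14.1 in RES libraries 58 and 55 and 3.28 to 8.51 in CON libraries 59, 53 and 56, and it did not exceed 0.537 CPM in the other 10. The higher values are thus those of libraries 53 to 59 in all groups of mice, and the lower ones those of libraries 60 to 69. The labels do not say what this order stands for, and its part was not tested. At an unadjusted p under 0.05, 3 of the 4 members passed in each B cell contrast with CON, beside 602 (SUS) and 560 (RES) of 17620 genes. In the T cell contrasts with CON, 0 of 4 passed, beside 906 (SUS) and 775 (RES) of 18860 genes.

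The RES over CON difference of Ly6Chigh monocytes was set against that of each other cell type in 1 fit. It differed for 0 of 6 members from Ly6Clow (beside 0.099% of 24248 genes), 0 of 6 from B cells (1.65%) and 0 of the 5 that could be estimated from T cells (0.713%). At an unadjusted p under 0.05 were 0 members in each, beside 2845, 4423 and 4289 of the 24248 genes. The intervals were wide, for example -2.52 to 1.47 on the log2 scale for Hp and -1.45 to 2.57 for Wfdc17 against Ly6Clow. For Lcn2 the difference from T cells could not be estimated, since both T cell groups were at 0.

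The members were also compared with each other within the groups. After subtracting the group means of log2(CPM + 0.5) over the 18 Ly6Chigh libraries, 3 of 15 member pairs were correlated (permutation test within groups, Benjamini-Hochberg over 15). Wfdc17 and Hp had Pearson's r of 0.834 (permutation p = 0.00028, adjusted 0.0042) and Spearman's rho of 0.796 (p = 0.00108, adjusted 0.0162), and r was 0.754 without the 2 libraries farthest from the median. Chil3 and Cd177 had r of 0.611 (permutation p = 0.00292, adjusted 0.0219) and rho of 0.629 (p = 0.00481, adjusted 0.0361), and r of 0.550 without 2 libraries. The third pair joins Wfdc17 and Saa3, for which no coefficient is given since 3 SUS libraries form a separate cluster. Hp and Cd177 passed by rho but not by r (r of 0.627, permutation p = 0.0142, adjusted 0.0520, rho of 0.645, p = 0.00986, adjusted 0.0370, r of 0.547 without 2 libraries), and so did Chil3 and Hp (r of 0.528, permutation p = 0.0173, adjusted 0.0520, rho of 0.616, p = 0.0131, adjusted 0.0392, r of 0.497 without 2 libraries). For Lcn2 the adjusted p ran from 0.0648 with Hp to 0.821, which does not show that it varied apart from the others. By rho, 5 pairs passed. By r, the number of pairs was 1 without CON library 1, 5 without CON library 4 and 6 without SUS library 11.

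The genes nearest to each member in the same libraries were then listed. Among 9632 genes with a mean of at least 5 CPM, those most like Lcn2 across the 18 libraries were the calprotectin subunit S100a8 (r of 0.907), the lipopolysaccharide-binding protein gene Lbp (0.837) and the granule lectin Fcnb (0.825). Nearest to Hp were the glycolytic enzyme Eno1 (0.967), Mvp (0.963) and Gm4735 (0.963), and near to Wfdc17 were Flot1 (0.937) and the protein disulfide isomerase gene P4hb (0.935). Nearest to Cd177 were the cannabinoid receptor gene Cnr2 (0.913), Il17ra (0.874) and Dph1 (0.869), and nearest to Chil3 were Gm6522 (0.856), the histone deacetylase gene Hdac4 (0.832) and then Naglu. For Saa3 the first were Rpn1, Tmem50b and Arf6, with no coefficient for the reason above. These are descriptions, picked from all genes searched.

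Against the mean log2 level of the 16 neutrophil markers, Lcn2 had r of 0.667 (permutation p = 0.00377, adjusted 0.0679 over 18 relations chosen after the values were seen), rho of 0.666 (p = 0.00358, adjusted 0.0644) and r of 0.411 without 2 libraries. Chil3, Wfdc17, Hp and Cd177 had r between -0.200 and 0.126 there. Against red cell markers, r was 0.272 for Chil3, 0.463 for Wfdc17, 0.532 for Hp and 0.546 for Cd177, with adjusted permutation p of 0.322 or more.

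**Figure D5:**
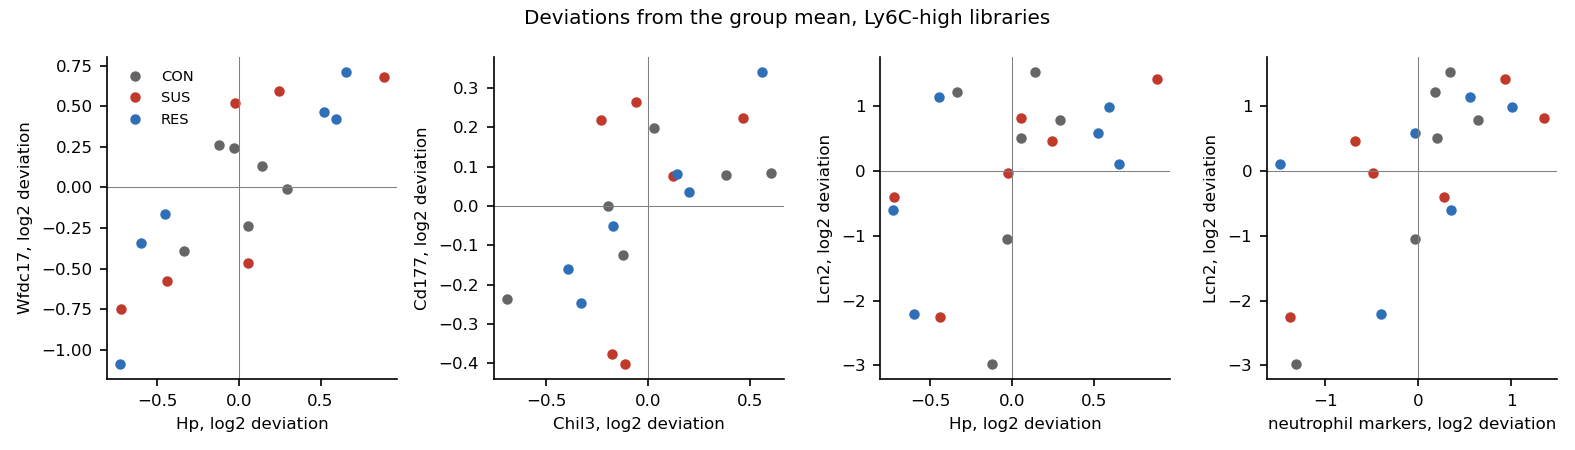
Deviation of log2(CPM + 0.5) from the group mean in the 18 Ly6C-high libraries for 4 pairs, coloured by group of mice, with lines at 0. Wfdc17 rises with Hp (r of 0.834) and Cd177 with Chil3 (r of 0.611), while r is 0.487 for Lcn2 with Hp and 0.667 for Lcn2 with the neutrophil marker mean, neither past the adjusted threshold.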

How the data were processed

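Cell type-specific RNA-sequencing libraries of sorted leukocytes (SMARTer Stranded Total RNA-Seq Pico kit) were mapped by the authors to mm10 with HISAT2, and the deposited table holds whole-number read counts per Ensembl gene from htseq-count. The strand option and the treatment of shared reads are not given in the sources used here. Symbols and positions come from GENCODE M21 (GRCm38), which held 52403 of the 52636 IDs. Libraries 52 and 70 were left out. Differences were tested within each cell type with edgeR 4.0.16 (R 4.3.3; filterByExpr, TMM, robust quasi-likelihood fit, all 3 groups of mice in 1 fit) and between cell types in 1 fit of 68 libraries. Calls needed a Benjamini-Hochberg adjusted p under 0.05 over all genes tested together with a log2 difference beyond 1 in either direction. For the RES against CON contrast set between cell types, the adjusted p alone was used. CPM values (counts per 1e+06 effective reads) use TMM factors over the 68 libraries, and logs a pseudocount of 0.5 CPM. The low-count filter kept 6 members in Ly6Chigh, 5 in Ly6Clow and 4 in B and T cells. Correlations used 100000 permutations within groups. Alternatives were DESeq2 1.42.0, its size factors, no filter, 2-group fits, marker covariates, adjusted p alone, removal of mitochondrial and haemoglobin genes, other pseudocounts and leaving out each library. Scripts were tested on simulated data. Text names the members, the 3 genes most like each (1 is not reported here), list genes called in Ly6Chigh (at most 4 by p) and marker genes. Chil4, Csf3r, Stat3, Hmox1, Elane, Mpo, Ltf, Camp, Ngp, Retnlg, Saa1, Saa4 and Lcn3 were chosen after their values were seen. The members and lists were chosen with earlier results of these data known. Counts cover sampling of reads only, and PCR copies were not separated.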

Additional observations from a re-analysis of the deposited data

Results flagged for a closer look

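A value was flagged where its gap to the nearest other library of its group exceeded the 95% critical value of Dixon's test. Chance flags about 1 in 20 groups, and 17 of 68 groups were flagged, mostly where the other libraries are at or near 0. In Ly6Chigh monocytes, this was Saa3 in RES library 18 (4.14 CPM, others up to 1.34). In Ly6Clow monocytes, it was Chil3 in RES library 31 (51.8 CPM, others 11.6 to 26.1), Lcn2 in CON library 21 (1.04 CPM) and RES library 20 (0.439 CPM), and Saa3 in CON library 32 (0.0596 CPM) and RES library 34 (0.122 CPM). In B cells, it was Hp in CON library 41 (2.08 CPM, others up to 0.585), Lcn2 in CON library 50 (0.1 CPM) and RES library 37 (0.25 CPM), and Saa3 in RES library 46 (0.617 CPM) and SUS library 45 (1.45 CPM). In T cells, it was Wfdc17 in CON library 56 (0.63 CPM), RES library 55 (1.93 CPM) and SUS library 54 (6.45 CPM), Lcn2 in SUS library 54 (2.07 CPM), and Saa3 in CON library 62 (0.0208 CPM) and RES library 61 (0.623 CPM). SUS T cell library 54 was flagged for both Wfdc17 and Lcn2.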

How the results depend on the processing

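No paired analysis was possible because the labels do not say which mouse a library came from. Libraries of different cell types may come from the same mice, and the fit across cell types treats them as independent. Of 412 alternative values of the counts of members, pairs and listed genes, 398 stayed within 1.5 times the reported count. Of the 412, 256 left out 1 library. Many of these counts were 0 in the main fit and stayed at 0 with any library left out. The tally therefore says little about how stable the counts above 0 are. With red cell markers as a covariate, the members called fell to 0 in Ly6Chigh SUS against CON (beside 0.0059% of genes) and 0 in RES against CON (beside 0%). The listed genes called fell to 0 from 17, which include the red cell markers that make up the covariate. With the adjusted p alone, 4 members passed in Ly6Chigh RES against CON, and 30 listed genes passed in at least 1 of the 3 Ly6Chigh contrasts. Of all genes, 12.6% then passed in SUS against CON, 4.97% in RES against CON and 0.0059% in SUS against RES. With DESeq2, 5 members (Lcn2 added) were called in Ly6Chigh SUS against CON (beside 4.41% of genes). In Ly6Clow, 2 members were called in SUS against CON (0.435%) and 2 in RES against CON (0.0256%). DESeq2 also called 1 in B cell SUS against CON (0.148%) and 2 between CON B and T cells (18%, both directions). With Spearman's rho, 5 member pairs passed. With 1 library left out, the count between CON B and T cells ran from 1 to 2 and that of member pairs from 1 to 6. Of 670 single-member values, 6 turned sign, all in Ly6Clow with 1 library left out: SUS against RES ran from -0.033 to 0.42 for Wfdc17 and from -0.073 to 0.35 for Hp, and RES against CON from -5.07 to 2.77 for Lcn2. The cause was not tested. Depth limits Saa3 and Lcn2 outside Ly6Chigh monocytes, where most libraries hold few counts of either.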
